A study of Mus musculus with 12 samples.

Results

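The transcripts examined were those of 9 nuclear receptor genes, namely Vdr, Rxra, Rxrb, Rara, Nr3c1, Pparg, Ppard, Nr1d1 and Nr1d2, out of 24421 gene symbols in the count table. They were taken by symbol, and Vdr was chosen by its strong rise with the bromodomain inhibitor, so its levels across the drug groups are given as a description without a test. The other 8 genes were listed with Vdr as receptors of the same superfamily. The cells sequenced were bone marrow-derived macrophages (BMDMs) from C57BL/6 animals, grown for 5 days in M-CSF (100 ng/mL, medium renewed on day 3). Macrophages were given ovalbumin (Ova) or ovalbumin in immune complexes with IgG (IC), which cross-link Fc gamma receptors, for 4 hours. Each was combined with I-BET151 (iBET, an inhibitor that displaces BET bromodomain proteins from acetylated chromatin) at 5.0 µM or with the solvent DMSO. Per the labels drug and stimulus were added together, whereas the study's text puts the drug before the stimulus, and which holds is not settled. The 4 groups, named DMSO Ova, DMSO IC, iBET Ova and iBET IC, held 3 libraries each, with 1 library from each of mice A, B and C in every group. All groups received ovalbumin, and all cells came from 1 strain and 1 culture protocol.

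Nuclear receptors are transcription factors that bind DNA and are, in many cases, switched by small lipophilic ligands such as vitamin D, retinoids, fatty acids, glucocorticoids or haem. Vdr, the retinoic acid receptors and the PPARs bind DNA as heterodimers with a retinoid X receptor, whereas the glucocorticoid receptor acts largely as a homodimer or monomer. In macrophages these factors are known for tuning lipid handling and for restraining inflammatory genes.

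The libraries held 7.55 M to 17.4 M counts. The ribosomal precursor Rn45s took 1.41% to 7.83% of counts in 11 libraries and 77.4% in that of mouse A in DMSO Ova (the Rn45s-rich library), which left 1.77 M counts for other genes there against 7.25 M to 16.9 M elsewhere. Counts of calls and receptor values that use DMSO Ova are therefore also given without the Rn45s-rich library. All 10 macrophage markers were detected in every library, with a summed level (CPM, counts scaled to a common library size with TMM factors) of 6977 to 8247 in DMSO Ova, 8103 to 9692 in iBET Ova, 6818 to 7767 in DMSO IC and 8481 to 9455 in iBET IC. The ranges of this marker sum overlapped between drug groups in Ova and lay higher with iBET, without overlap, in IC, and its part in the receptor differences was not tested. Of 18 markers of other marrow cells in the table, 6 were at 0 in all 12 libraries, among them Nkg7, Hbb-bt, Cpa3 and Mcpt8. Another 2 had enough counts to be tested. The highest levels in any library were those of Mpo (1.33 CPM), Zbtb46 (1.21 CPM) and Elane (0.663 CPM). The summed level of the list was 0.990 to 2.76 CPM.

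The promoters of the 3 receptor genes with the largest differences between drug groups are shown first, since these are the members on which the results turn. Each is the 250 bases before a transcription start in RefSeq (build GRCm38.p6), read 5′ to 3′ on the gene's own strand, with capitals marking GC boxes (GGGCGG, searched on both strands), the motif bound by Sp-family factors. The Vdr window lies at chr15:97908297-97908546 on the minus strand and the Ppard window at chr17:28232504-28232753 on the plus strand. The Pparg window, at chr6:115360894-115361143 on the plus strand, precedes the first of 3 RefSeq starts. The Vdr window lies wholly, and the Ppard and Pparg windows partly, within the gene spans given below. Their letters therefore depend on the RefSeq start used.
Vdr promoter: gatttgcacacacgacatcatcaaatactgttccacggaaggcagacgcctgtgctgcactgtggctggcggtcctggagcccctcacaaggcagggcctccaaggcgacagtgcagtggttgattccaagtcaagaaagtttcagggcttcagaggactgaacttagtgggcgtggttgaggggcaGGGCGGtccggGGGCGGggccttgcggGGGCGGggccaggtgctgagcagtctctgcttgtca
Ppard promoter: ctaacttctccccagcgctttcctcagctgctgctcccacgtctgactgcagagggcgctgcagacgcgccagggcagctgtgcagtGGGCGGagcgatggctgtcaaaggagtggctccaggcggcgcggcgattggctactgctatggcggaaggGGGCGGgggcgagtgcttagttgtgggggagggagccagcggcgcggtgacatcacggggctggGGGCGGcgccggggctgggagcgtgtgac
Pparg promoter: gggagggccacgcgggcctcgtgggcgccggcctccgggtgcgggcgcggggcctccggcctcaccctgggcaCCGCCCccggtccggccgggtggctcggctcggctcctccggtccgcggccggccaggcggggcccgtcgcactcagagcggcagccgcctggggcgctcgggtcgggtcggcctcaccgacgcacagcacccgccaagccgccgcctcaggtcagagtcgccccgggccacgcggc
Vdr and Ppard each held 3 GC boxes in this window and Pparg held 1. The windows of the other Pparg starts, not shown, held 2 and 0 with a GC content of 63.6% and 40.8%, so the values of Pparg depend on the start. Of 32817 RefSeq promoter windows of the same length, 32.7% held at least 1 such box. In the windows shown the GC content was 61.2% for Vdr, 69.6% for Ppard and 82.4% for Pparg, against a median of 52.4% over all windows. Among the other receptors, GC boxes numbered 3 for Nr1d2, 2 and 3 for Rxrb and 3 and 0 for Rxra. Rara windows held 4, 4, 0 and 1, and that of Nr1d1 held 0. The GC content of these windows ran from 54.8% (Nr1d1) to 82.4% (Rxrb). Neither GC boxes nor a high GC content were thus particular to the 3 genes shown. The receptor half-site AGGTCA, searched on both strands and in letters unable to overlap a GC box, was found 0 times in the Vdr and Ppard windows and 1 time in that of Pparg shown, and 14.03% of all windows held it. A match or its absence describes these letters only.

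Vdr, the receptor for the active form of vitamin D, spans chr15:97854425-97910630 on the minus strand (GRCm38/mm10). It was scarce in DMSO and present at several CPM in every iBET library. In Ova the Vdr level was 1.54, 1.23 and 0.746 CPM with DMSO and 7.56, 9.70 and 8.57 CPM with iBET in mice A, B and C. In IC it was 0.252, 0.880 and 0.667 CPM with DMSO and 8.17, 7.65 and 8.99 CPM with iBET. Every iBET library was above every DMSO library under both stimuli. The raw counts were small in DMSO, with 3 to 16 Vdr counts per library (28 in all in Ova and 18 in IC), and 75 to 153 per library in iBET (262 and 307 in all). The fitted difference of iBET from DMSO was 8.11-fold in Ova (log2 fold change 3.02, SE 0.31, 95% interval 2.34 to 3.70) and was larger in IC (log2 fold change 3.81, SE 0.32, 95% interval 3.11 to 4.50). With the Rn45s-rich library omitted, the log2 difference in Ova was 3.05. By fitted change Vdr stood at place 24 of the 11468 genes tested in Ova and at place 8 in IC. These values are those by which Vdr was chosen, and its SE and intervals are not corrected for that choice. In order of level, iBET Ova (8.61 ± 1.07 CPM, SD, n = 3) and iBET IC (8.27 ± 0.673) overlapped, and so did DMSO Ova (1.17 ± 0.400) and DMSO IC (0.600 ± 0.319). In bulk RNA a change in the share of cells that carry a transcript and a change in the amount per cell cannot be told apart, which holds for all values below.

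**Figure D1:**
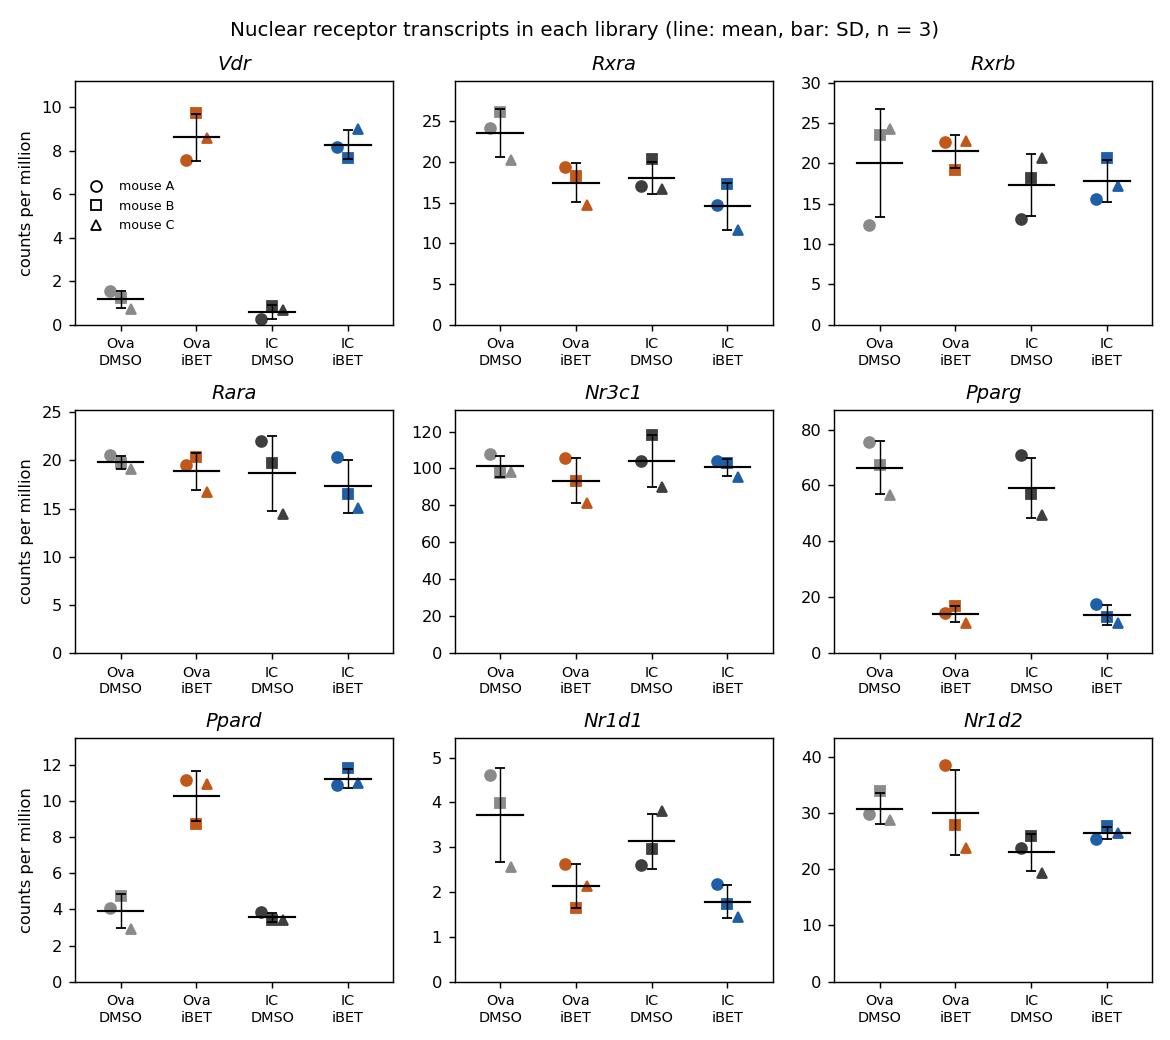
Level of each receptor transcript in CPM (vertical axis, starting at 0) in every library of the 4 groups (horizontal axis); symbols are mice A, B and C, lines the group mean and bars the SD (n = 3). Vdr and Ppard lie higher and Pparg lower in all iBET libraries than in all DMSO libraries of the same stimulus, with Vdr between 0.252 and 9.70 CPM.

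Genes with an adjusted p below 0.05 were called, with p-values from edgeR's quasi-likelihood test with Benjamini-Hochberg adjustment over all 11468 genes tested. With iBET in Ova, 31.3% of all tested genes were called (17.1% higher, 14.2% lower), and with iBET in IC 34.8% (19.0% higher, 15.8% lower). Among the 8 receptors other than Vdr, all of which were tested, 2 were called in Ova and 2 in IC. For so few genes this share (25%) is close to that of all tested genes in either comparison. In each, Ppard was the 1 called higher and Pparg the 1 called lower. Their median log2 fold change was -0.08 in both comparisons, beside 0.02 over all genes in Ova and -0.0037 in IC. Both counts were again 2 with the Rn45s-rich library omitted.

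Pparg, the fatty acid-activated receptor known for driving lipid uptake and storage genes, is at chr6:115360951-115490399 on the plus strand. Its level in Ova was 75.5, 67.2 and 56.5 CPM with DMSO and 14.4, 16.8 and 10.8 CPM with iBET in mice A, B and C. In IC it was 70.9, 57.0 and 49.5 CPM with DMSO and 17.7, 12.8 and 10.8 CPM with iBET. All 6 DMSO libraries lay above all 6 iBET libraries. Pparg fell 4.69-fold in Ova (log2 fold change -2.23, SE 0.22, adjusted p = 1.39e-05) and 4.25-fold in IC (-2.09, SE 0.21, adjusted p = 1.74e-05). The fall was seen in 3 of 3 mice under each stimulus. Omitting the Rn45s-rich library gave a change in Ova of -2.19 (adjusted p = 2.49e-05).

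Ppard, the PPAR family member that is known for switching on fatty acid oxidation genes, is at chr17:28232700-28301474 on the plus strand. Its level moved the other way. In Ova it was 4.11, 4.75 and 2.90 CPM with DMSO and 11.2, 8.71 and 10.9 CPM with iBET in mice A, B and C. In IC it was 3.87, 3.41 and 3.43 CPM with DMSO and 10.9, 11.8 and 11.0 CPM with iBET. The groups did not overlap under either stimulus. Ppard rose 2.65-fold in Ova (log2 fold change 1.41, SE 0.20, adjusted p = 0.000279) and 3.13-fold in IC (1.65, SE 0.19, adjusted p = 5.21e-05). Each of the 3 mice showed the rise under both stimuli. With the Rn45s-rich library omitted the change in Ova was 1.37 (adjusted p = 0.000706). The remaining PPAR, Ppara, had 2 counts in the 12 libraries together and was not tested.

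**Figure D2:**
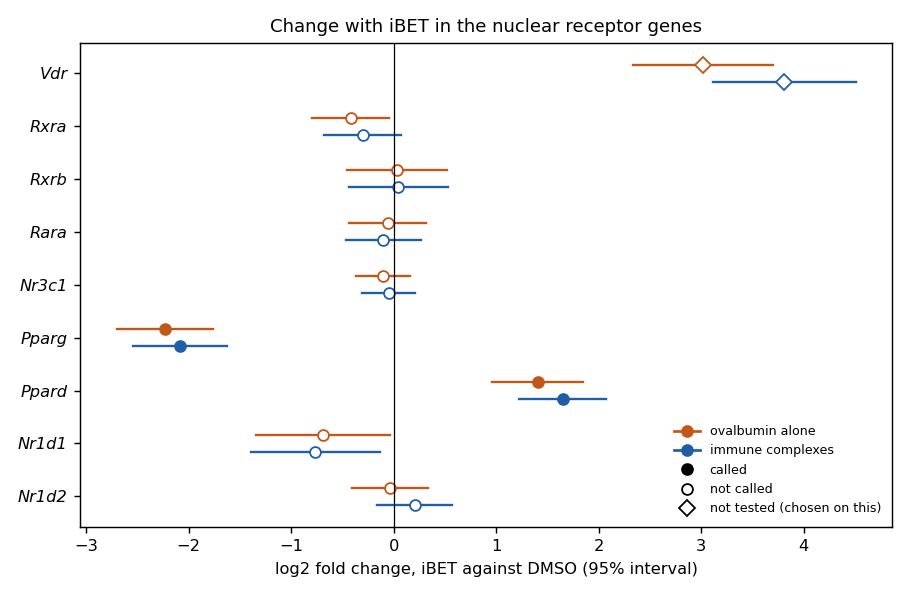
Log2 fold change of iBET against DMSO (horizontal axis) with its 95% interval for each receptor (vertical axis), in ovalbumin alone and in immune complexes; filled circles were called, open circles were not, and diamonds mark Vdr, which was chosen on this contrast and not tested. Pparg lies at -2.23 and -2.09 and Ppard at 1.41 and 1.65, while the intervals of Rxrb, Rara, Nr3c1 and Nr1d2 include 0 under both stimuli.

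The opposite moves of the PPAR pair are seen within each library when levels are set per length (RPKM, CPM per kilobase of annotated exon). The RPKM ratio of Pparg to Ppard was 46.8, 36.0 and 49.5 in DMSO Ova, and 3.28, 4.90 and 2.52 in iBET Ova. In IC this ratio was 46.6, 42.5 and 36.7 with DMSO and 4.13, 2.75 and 2.49 with iBET. Pparg thus remained the more abundant of the pair in all 12 libraries, by 44.1 ± 7.14 times in DMSO Ova, 41.9 ± 4.97 in DMSO IC, 3.57 ± 1.21 in iBET Ova and 3.12 ± 0.880 in iBET IC (mean ± SD, n = 3).

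The shared partners of these receptors varied less. Rxra, the retinoid X receptor that pairs with Vdr, PPARs and retinoic acid receptors, is at chr2:27676440-27762957 on the plus strand. Its level in Ova was 24.1, 26.1 and 20.3 CPM with DMSO and 19.4, 18.3 and 14.8 CPM with iBET in mice A, B and C. In IC it was 17.1, 20.4 and 16.7 CPM with DMSO and 14.7, 17.3 and 11.6 CPM with iBET. The drug groups did not overlap in Ova and overlapped in IC, and the iBET library was the lower in 3 of 3 mice under each stimulus. The log2 fold change of Rxra was -0.42 (SE 0.17, adjusted p = 0.0861) in Ova and -0.30 (SE 0.17, adjusted p = 0.195) in IC, neither of which passed. With mouse as a replicate block the value in Ova was -0.42 with an adjusted p of 0.0195, which passed, and without the Rn45s-rich library it was -0.46 (adjusted p = 0.0922). Rxrb, the second retinoid X receptor (chr17:34031812-34038399, plus strand), had a log2 fold change of 0.03 (95% interval -0.46 to 0.52, adjusted p = 0.929) in Ova and 0.04 (-0.44 to 0.53, adjusted p = 0.900) in IC. The Rn45s-rich library had the lowest Rxrb level of all 12 libraries (12.3 CPM, against 23.5 and 24.3 CPM in mice B and C), and without it the value in Ova was -0.20 (adjusted p = 0.480). Rxrg, the remaining retinoid X receptor, had 0 counts in all libraries.

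As a ratio of RPKM within a library, Vdr stood at 0.0617, 0.0454 and 0.0355 of Rxra in DMSO Ova and at 0.377, 0.512 and 0.561 in iBET Ova. In IC the ratio was 0.0143, 0.0418 and 0.0387 with DMSO and 0.536, 0.427 and 0.747 with iBET. The Vdr transcript was below that of Rxra in every library on this per-length scale. Since Vdr was chosen for its rise, this ratio is a description as well.

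**Figure D3:**
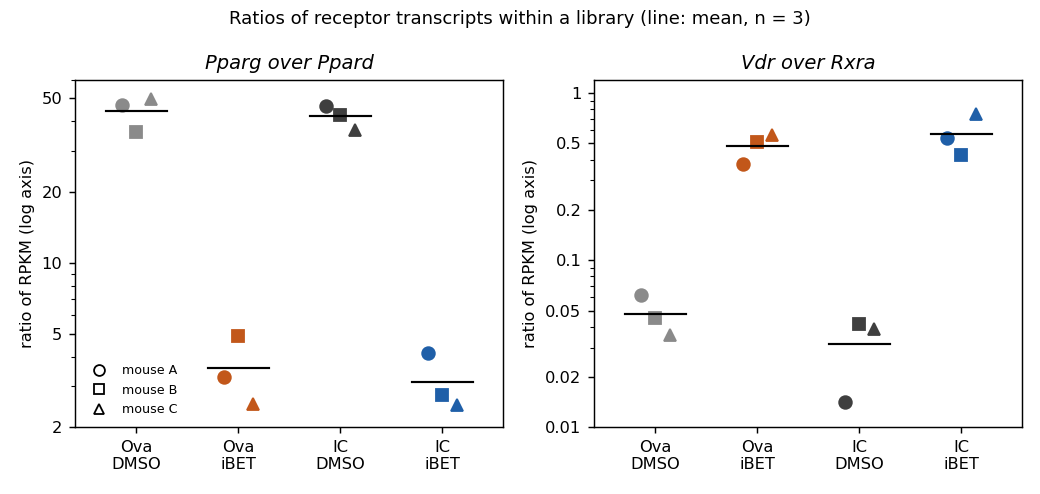
Ratio of RPKM within each library (vertical log axis) of Pparg to Ppard and of Vdr to Rxra in the 4 groups (horizontal axis); symbols are mice and lines the mean of 3. The Pparg to Ppard ratio is 36.0 to 49.5 in DMSO and 2.49 to 4.90 in iBET, and the Vdr to Rxra ratio is 0.0143 to 0.0617 in DMSO and 0.377 to 0.747 in iBET.

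Among the other ligand receptors, Rara and Nr3c1 did not pass under either stimulus. Rara, a receptor for retinoic acid (chr11:98927818-98974942, plus strand), lay between 14.4 and 22.0 CPM over the 12 libraries. Its log2 fold change with iBET was -0.06 (95% interval -0.44 to 0.32, adjusted p = 0.824) in Ova and -0.10 (-0.47 to 0.26, adjusted p = 0.670) in IC. Nr3c1, the glucocorticoid receptor, lay between 81.3 and 118 CPM. Its log2 fold change was -0.11 (95% interval -0.37 to 0.15, adjusted p = 0.532) in Ova and -0.05 (-0.31 to 0.21, adjusted p = 0.779) in IC. Without the Rn45s-rich library the values in Ova were -0.09 for Rara (adjusted p = 0.762) and -0.11 for Nr3c1 (adjusted p = 0.561). The intervals of Nr3c1 are the narrowest among the 9 genes and correspond to folds of 0.773 to 1.11 in Ova and 0.807 to 1.16 in IC.

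Nr1d1 and Nr1d2 encode REV-ERB alpha and beta, haem-binding repressors of the circadian clock. Nr1d1 (chr11:98767932-98775333, minus strand) was low, at 4.62, 3.99 and 2.57 CPM in DMSO Ova and 2.62, 1.65 and 2.14 CPM in iBET Ova. In IC it was 2.61, 2.97 and 3.81 CPM with DMSO and 2.19, 1.74 and 1.44 CPM with iBET. The iBET library was lower in 3 of 3 mice under both stimuli, while the groups overlapped slightly in Ova and not in IC. The log2 fold change of Nr1d1 was -0.69 (SE 0.30, adjusted p = 0.101) in Ova and -0.76 (SE 0.29, adjusted p = 0.0592) in IC, neither of which passed. The value in IC was -0.91 and passed (adjusted p = 0.0496) once DMSO IC of mouse A was omitted. With the Rn45s-rich library omitted the value in Ova was -0.65 (adjusted p = 0.147). Exons of Nr1d1 overlap those of Thra, on the opposite strand, by 263 bases, and the use of strand in counting is not given in the sources used here, so reads in that overlap cannot be assigned. Nr1d2 (chr14:18204054-18239127, minus strand) was the more abundant of the pair in all 12 libraries, with a ratio of RPKM between 2.89 and 10.4. Its log2 fold change was -0.03 (95% interval -0.41 to 0.34, adjusted p = 0.902) in Ova and 0.20 (-0.17 to 0.57, adjusted p = 0.380) in IC. Without the Rn45s-rich library the value in Ova was -0.10 (adjusted p = 0.734).

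Set per length, the 9 transcripts ranked in DMSO Ova from Pparg (22.5 ± 3.23 RPKM) and Nr3c1 (13.2 ± 0.755) through Nr1d2 (5.69 ± 0.499), Rxrb (5.05 ± 1.69), Rara (4.54 ± 0.161) and Rxra (4.31 ± 0.543) to Nr1d1 (1.21 ± 0.342), Ppard (0.522 ± 0.125) and Vdr (0.207 ± 0.0708). From Nr1d2 to Rxra each gene's range over the 3 libraries overlapped that of its neighbour in this order, and no other neighbours overlapped. In iBET Ova, Nr3c1 led at 12.2 RPKM, Pparg stood at 4.74, Vdr at 1.52 and Ppard at 1.37, and Nr1d1 was lowest at 0.696. In iBET IC, Nr3c1 stood at 13.1, Pparg at 4.66, Vdr at 1.46 and Nr1d1 at 0.582 RPKM, with Ppard again next to Vdr.

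The comparison of IC with Ova asked which transcripts respond to Fc gamma receptor engagement. In DMSO 1.22% of all genes were called and in iBET 0.349%. With mouse as a replicate block, which takes up the pairing, calls rose from 140 to 315 in DMSO. In iBET the block raised them from 40 to 85, and 0 of the 8 receptors other than Vdr were called with it in either arm. None of the 8 receptors other than Vdr was called in either arm by edgeR, by DESeq2 or by limma, and in edgeR 2 (Rxra and Nr1d2) had an unadjusted p under 0.05 in DMSO and 0 in iBET. Vdr shares these libraries with the contrast that chose it, and passed the filter through its iBET libraries, so its values are given without a test. Its log2 fold change was -0.85 (95% interval -1.75 to 0.06) in DMSO, where the counts were fewest, and -0.06 (-0.57 to 0.46) in iBET. Nr1d2 was lower with IC in DMSO in 3 of 3 mice, without overlap (29.8, 33.8 and 28.7 CPM against 23.7, 25.9 and 19.4 CPM), with a log2 fold change of -0.43 (SE 0.17, adjusted p = 0.343). Rxra was also lower in 3 of 3 mice in DMSO, at -0.38 (SE 0.17, adjusted p = 0.425), with overlapping groups. Over the 9 genes the log2 fold changes with IC ran from -0.85 to 0.05 in DMSO and from -0.27 to 0.13 in iBET. Without the Rn45s-rich library the DMSO values ran from -0.79 (Vdr) to 0.07 (Nr3c1), 0 were called, and that of Rxrb was -0.49 (adjusted p = 0.316). Those of Nr1d2 and Rxra were then -0.47 (adjusted p = 0.328) and -0.39 (adjusted p = 0.441).

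The interaction, which is the iBET effect in IC minus that in Ova, asked whether the stimulus altered the drug effect. By edgeR, 0% of all genes were called, and 292 had an unadjusted p under 0.05. DESeq2 called 4 genes and limma 0. Of the 8 receptors other than Vdr, 0 were called by edgeR, DESeq2 or limma and 0 had an unadjusted p under 0.05 in edgeR. Their differences ran from -0.07 (Nr1d1) to 0.24 (Ppard). For Pparg the difference was 0.14 with a 95% interval of -0.50 to 0.78, and for Ppard it was 0.24 with an interval of -0.37 to 0.85, so differences of up to 1.72-fold and 1.80-fold between the arms lay within the error. For Vdr the difference was 0.79 (95% interval -0.24 to 1.82), given without a test. By log2 CPM it was 2.08 in mouse A, 0.07 in B and 0.19 in C. Omitting the Rn45s-rich library again gave 0 called receptors.

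To place these genes, all 49 nuclear receptor genes in the table were examined. Of these, 22 were tested, and the other 27 had 0 to 52 counts in the 12 libraries together, 13 of them 0. Leaving Vdr out, 8 of 21 were called with iBET in Ova (5 higher and 3 lower, 38.1%), beside 31.3% of all tested genes. In IC 9 of 21 were called (5 higher and 4 lower, 42.9%), beside 34.8%. The median log2 fold change was -0.03 in Ova and 0.02 in IC. The counts were 7 and 10 with the Rn45s-rich library omitted, and with mouse as a replicate block they were 10 and 11. The block also raised the calls over all genes, from 3593 to 4387 in Ova and from 3987 to 4829 in IC. Besides Ppard, the receptors that rose under both stimuli were Nr4a2, Rora and Nr1h2, and besides Pparg those that fell under both were Nr1h3 and Rarg.

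Nr4a2, a ligand-independent receptor of the immediate early class, rose under both stimuli. The level in Ova was 2.99 ± 0.730 CPM with DMSO and 11.4 ± 1.88 CPM with iBET, a log2 fold change of 1.87 (SE 0.24, adjusted p = 9.74e-05), and in IC it was 1.76 ± 0.284 CPM with DMSO and 6.74 ± 1.25 CPM with iBET, a change of 1.92 (SE 0.24, adjusted p = 8.77e-05). Rora, which competes with the REV-ERB proteins for the same DNA elements, rose by 0.76 (SE 0.17, adjusted p = 0.00458) and 1.01 (SE 0.17, adjusted p = 0.000548). The 2 liver X receptors, sensors of oxysterols, moved apart. Nr1h2 (LXR beta) rose under both stimuli. Its Ova level was 63.1 ± 5.28 CPM with DMSO and 86.9 ± 2.35 CPM with iBET, a log2 fold change of 0.46 (SE 0.10, adjusted p = 0.00308), and in IC it was 60.9 ± 4.05 CPM with DMSO and 76.1 ± 4.45 CPM with iBET, a change of 0.32 (SE 0.09, adjusted p = 0.0178). Omitting DMSO IC of mouse C (0.27, adjusted p = 0.0691) or iBET IC of mouse A (0.28, adjusted p = 0.0776) lost the Nr1h2 call in IC, as did leaving out any 1 mouse (adjusted p 0.0627 to 0.137), and in Ova Nr1h2 did not pass with mouse B (0.52, adjusted p = 0.0516) or C (0.41, adjusted p = 0.0697) left out. Nr1h3 (LXR alpha) fell under both stimuli. In Ova it stood at 4.82 ± 1.24 CPM with iBET, a log2 fold change against DMSO of -1.47 (SE 0.30, adjusted p = 0.00260), and in IC it was 23.0 ± 4.20 CPM with DMSO and 5.74 ± 1.55 CPM with iBET, a change of -1.98 (SE 0.28, adjusted p = 0.000210). Per length, Nr1h3 varied widely in DMSO Ova (5.16 ± 1.98 RPKM, 3.88 to 7.44), beside 9.14 ± 1.67 in DMSO IC and 1.91 ± 0.495 in iBET Ova. Rarg, a retinoic acid receptor like Rara, fell under both stimuli. The level in Ova was 13.1 ± 1.35 CPM with DMSO and 4.32 ± 0.512 CPM with iBET, a log2 fold change of -1.61 (SE 0.20, adjusted p = 7.84e-05), and in IC it was 10.5 ± 0.886 CPM with DMSO and 4.45 ± 1.06 CPM with iBET, a change of -1.26 (SE 0.19, adjusted p = 0.000331). Without the Rn45s-rich library Nr4a2, Rora, Nr1h2, Nr1h3 and Rarg were each called again in Ova, with Nr1h2 at 0.38 (adjusted p = 0.0175). A further 3 genes were called under 1 stimulus only, namely Nr4a1 (higher in Ova), Nr2c2 (higher in IC) and Nr2c1 (lower in IC), and for these the difference between stimuli did not pass.

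**Figure D4:**
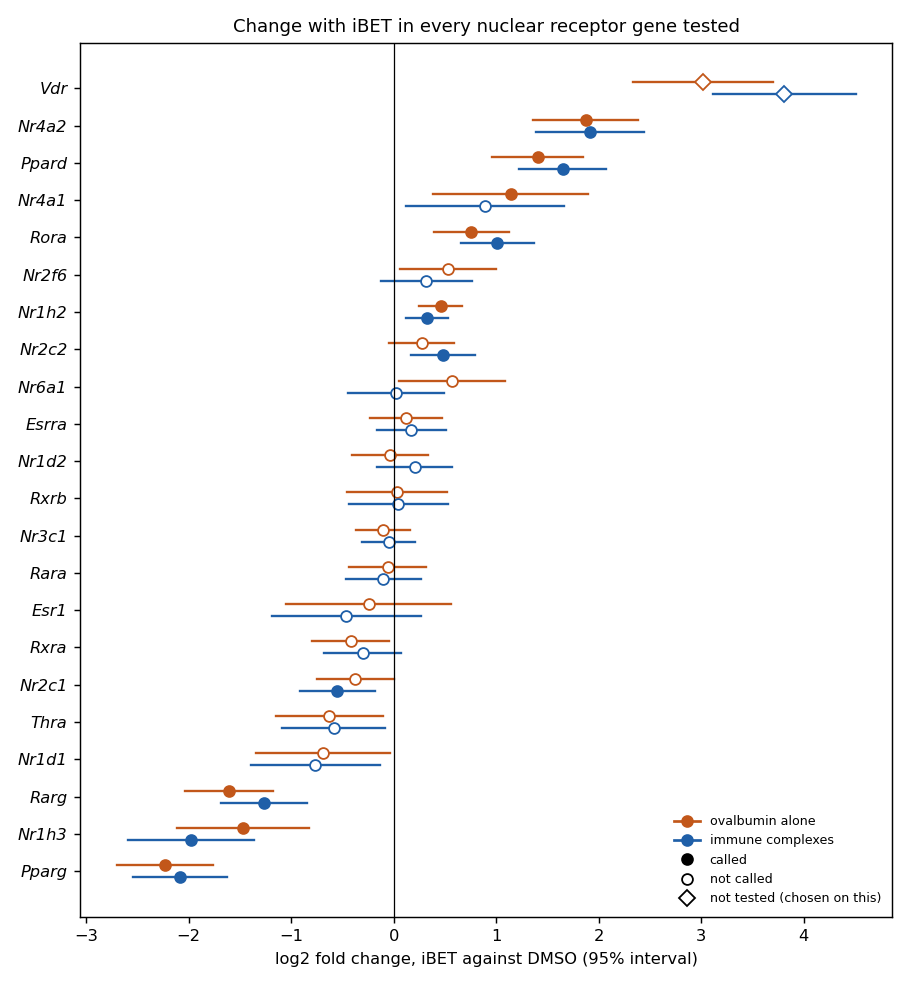
Log2 fold change of iBET against DMSO (horizontal axis) with its 95% interval for the 22 nuclear receptor genes tested (vertical axis, ordered by the mean of both values), in ovalbumin alone and in immune complexes; filled circles were called, open circles were not, and diamonds mark Vdr, which was not tested. Nr4a2 (1.87 and 1.92) lies next to Ppard at the upper end, and Rarg, Nr1h3 and Pparg lie at the lower end with values from -1.26 to -2.23.

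Genes of the pathways of these receptors were then counted from lists drawn up with earlier results of these data known. No list was tested as a set. Of 18 vitamin D metabolism and target genes, 6 were tested. In Ova 0 of these were called by edgeR, with 2 at an unadjusted p under 0.05, and with mouse as a replicate block 2 were called. In IC 1 was called, Dhcr7, the last enzyme of cholesterol synthesis, which consumes the vitamin D precursor (0.86, SE 0.22, adjusted p = 0.00958), and 2 were called with the block. Omitting the Rn45s-rich library gave 1 and 2 calls, omitting DMSO IC of mouse A 1 and 2, omitting DMSO IC of mouse C 2 and 3, and omitting iBET IC of mouse C gave 2 in IC. With mouse B left out the count in IC was 0, so that the Dhcr7 call was lost. Cyp24a1, the catabolic enzyme and best-known target of the vitamin D receptor, had 1 count in all 12 libraries together, and Cyp27b1, which makes the active hormone, had 7. At this depth neither could be compared between groups.

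Of 14 retinoid genes only 3 were tested. In Ova 0 were called by edgeR, although all 3 had an unadjusted p under 0.05, and DESeq2, limma and the fit with a replicate block each called 1. Omitting the Rn45s-rich library or DMSO IC of mouse A made it 2, and omitting iBET Ova of mouse A or C made it 1. In IC 1 was called, Rdh10, which oxidises retinol on the way to retinoic acid and rose there from 3.19 ± 0.397 CPM to 7.11 ± 0.615 (log2 fold change 1.14, SE 0.22, adjusted p = 0.00179). This call in IC was lost, with a count of 0, when mouse B was left out, and the count was 2 when mouse A was.

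Of 13 tested genes known as targets of the glucocorticoid receptor Nr3c1, 9 rose and 0 fell in Ova (69.2% of the list). In IC 8 rose and 0 fell (61.5%), and the median log2 fold changes were 0.65 and 0.85. Over all tested genes the shares called were 31.3% (17.1% higher) in Ova and 34.8% (19.0% higher) in IC. The count of glucocorticoid targets in Ova was 8 with the Rn45s-rich library omitted. With mouse as a replicate block 9 of them rose and 1 fell in Ova. The largest rises were those of the metallothioneins, small metal-binding proteins that respond to zinc as well as to glucocorticoids. Mt2 rose under both stimuli. Its Ova level was 12.3 ± 1.63 CPM with DMSO and 132 ± 36.6 CPM with iBET, a log2 fold change of 3.40 (SE 0.25, adjusted p = 3.59e-06), and in IC it was 11.1 ± 1.51 CPM with DMSO and 145 ± 36.3 CPM with iBET, a change of 3.70 (SE 0.25, adjusted p = 1.37e-06). Mt1 rose by 2.68 (SE 0.16) and 2.74 (SE 0.16). Ddit4, a stress-responsive inhibitor of mTOR signalling, rose by 2.16 (SE 0.46, adjusted p = 0.00347) in Ova and 1.31 (SE 0.38, adjusted p = 0.0189) in IC from low levels, and its call in IC was lost without DMSO IC of mouse A (1.14, adjusted p = 0.0756) or iBET IC of mouse C (1.03, adjusted p = 0.0746). It was also lost in limma (adjusted p = 0.0547 with a pseudocount of 1 and 0.0731 with 0.1) and without any 1 mouse (0.0664 to 0.0923), and the Ddit4 call in Ova was lost without mouse C (1.44, adjusted p = 0.0643). Fkbp5, a co-chaperone of the glucocorticoid receptor, rose by 0.94 (SE 0.15, adjusted p = 0.000538) and 0.87 (SE 0.15, adjusted p = 0.000663).

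Targets shared by the PPARs moved in both directions, beside the fall of Pparg and the rise of Ppard. Of 15 tested, 5 rose and 2 fell in Ova (46.7% of the list, beside 31.3% of all tested genes). In IC 7 rose and 3 fell (66.7%, beside 34.8%), and the medians were 0.06 and 0.13. Omitting the Rn45s-rich library gave 5 and 10. The genes that rose encode enzymes of fatty acid oxidation, among them Cpt1a, which passes fatty acids into mitochondria, with 0.89 (SE 0.14, adjusted p = 0.000521) in Ova and 0.99 (SE 0.14, adjusted p = 0.000201) in IC, together with Ucp2, an inner-membrane carrier. Acadvl, the first enzyme of long-chain oxidation, rose by 0.71 and 0.65 (SE 0.11 each). Angptl4, a secreted inhibitor of lipoprotein lipase, fell under both stimuli. In Ova it stood at 3.01 ± 1.06 CPM with DMSO and 0.413 ± 0.168 CPM with iBET, a log2 fold change of -2.87 (SE 0.45), and in IC it was 3.37 ± 0.686 CPM with DMSO and 0.379 ± 0.226 CPM with iBET, a change of -2.99 (SE 0.43). The iBET levels of Angptl4 lay near the floor, and the gene passed the filter through its DMSO libraries. The size of its fall is therefore uncertain and is given without a test, although the counts of genes that fell include Angptl4. Plin2, the coat protein of lipid droplets, fell under both stimuli. The level in Ova was 592 ± 38.0 CPM with DMSO and 348 ± 15.6 CPM with iBET, a log2 fold change of -0.77 (SE 0.10), and in IC it was 595 ± 5.77 CPM with DMSO and 341 ± 33.2 CPM with iBET, a change of -0.80 (SE 0.10). Cd36, a fatty acid transporter often used as a readout of Pparg, was at 1561 ± 269 CPM in DMSO Ova, 1608 ± 307 in iBET Ova, 1634 ± 170 in DMSO IC and 1604 ± 104 in iBET IC, with log2 fold changes of 0.04 (adjusted p = 0.866) and -0.03 (adjusted p = 0.912). Fabp4, another gene of this list, was called lower in IC and was not called in Ova.

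**Figure D5:**
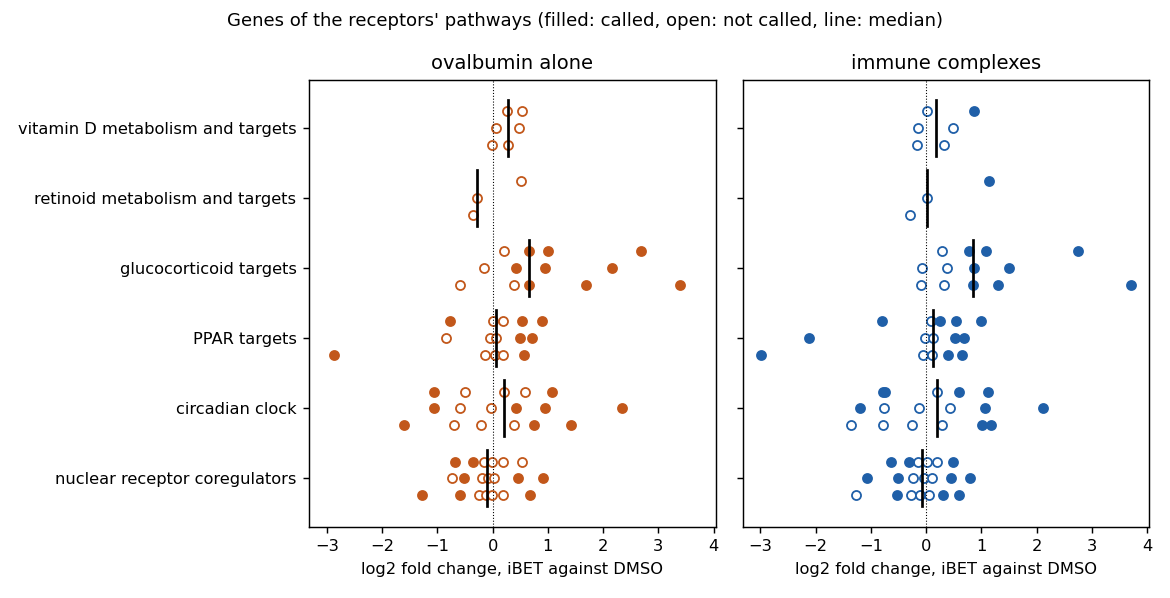
Log2 fold change of iBET against DMSO (horizontal axis) for every tested gene of 6 lists tied to the receptors (vertical axis), in ovalbumin alone and in immune complexes; filled circles were called, open circles were not, and the line is the median of the list. Glucocorticoid targets have medians of 0.65 and 0.85 with no called gene below 0, in the fit without a block, whereas the PPAR and clock lists have called genes on both sides.

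In the circadian clock list, which holds Nr1d1, Nr1d2 and Rora, 6 of 17 tested genes rose and 3 fell in Ova. In IC 6 rose and 3 fell. The share called was 52.9% of the list under each stimulus, beside 31.3% (Ova) and 34.8% (IC) of all tested genes. The medians were 0.21 and 0.20. Without the Rn45s-rich library the counts were 7 and 9. Nfil3, a repressor that binds D-box elements, rose under both stimuli. Its Ova level was 3.91 ± 1.52 CPM with DMSO and 17.4 ± 1.19 CPM with iBET, a log2 fold change of 2.35 (SE 0.25, adjusted p = 2.67e-05), and in IC it was 4.16 ± 1.17 CPM with DMSO and 18.2 ± 2.28 CPM with iBET, a change of 2.11 (SE 0.23, adjusted p = 2.50e-05). The cryptochromes, which repress the Clock and Arntl dimer, rose too, Cry2 by 1.41 (SE 0.16) and 1.17 (SE 0.15) and Cry1 by 1.08 (SE 0.17) and 1.07 (SE 0.16). Bhlhe41 and Bhlhe40, E-box repressors, had log2 fold changes of -1.06 (SE 0.13) and -1.07 (SE 0.16) in Ova and of -1.20 (SE 0.12) and -0.75 (SE 0.15) in IC and were called lower in both. Arntl, which REV-ERB proteins repress, rose under both stimuli. In Ova it stood at 13.3 ± 1.35 CPM with DMSO and 26.2 ± 1.69 CPM with iBET, a log2 fold change of 0.95 (SE 0.15, adjusted p = 0.000628), and in IC it was 10.2 ± 1.04 CPM with DMSO and 22.1 ± 3.85 CPM with iBET, a change of 1.11 (SE 0.15, adjusted p = 0.000152). Dbp, a D-box activator, had values of -0.59 (SE 0.27, adjusted p = 0.126) and -0.27 (SE 0.29, adjusted p = 0.499).

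The coregulators through which nuclear receptors act also moved both ways. Of 20 tested, 3 rose and 5 fell in Ova (40% of the list, beside 31.3% of all tested genes). In IC 5 rose and 5 fell (50%, beside 34.8%), and the medians were -0.10 and -0.07. Without the Rn45s-rich library the counts called were 10 and 11. In IC the count of 10 became 6 on omission of iBET IC of mouse A or of mouse B. Nrip1, a ligand-dependent corepressor, rose by 0.91 (SE 0.14, adjusted p = 0.000513) in Ova and 0.80 (SE 0.14, adjusted p = 0.000833) in IC, and Sin3a, a scaffold of deacetylase complexes, by 0.46 and 0.48 (SE 0.08 each). Lcor, also a ligand-dependent corepressor, rose by 0.68 (SE 0.15, adjusted p = 0.00430) and 0.45 (SE 0.14, adjusted p = 0.0293), and the call in IC was lost without DMSO IC of mouse A (0.33, adjusted p = 0.141) or C (0.37, adjusted p = 0.0975) or iBET IC of mouse A (0.40, adjusted p = 0.0960) or B (0.41, adjusted p = 0.0932). Tbl1xr1, a subunit of the NCoR and SMRT corepressor complexes, fell under both stimuli. The level in Ova was 180 ± 19.8 CPM with DMSO and 74.6 ± 5.28 CPM with iBET, a log2 fold change of -1.28 (SE 0.11, adjusted p = 6.18e-06), and in IC it was 168 ± 15.0 CPM with DMSO and 79.8 ± 4.03 CPM with iBET, a change of -1.07 (SE 0.11, adjusted p = 1.69e-05). The coactivators Carm1, an arginine methyltransferase, and Ncoa6 fell under both stimuli, with log2 fold changes of -0.68 and -0.60 in Ova and -0.64 and -0.52 in IC (SE 0.10 to 0.14). Per1 counts in both the glucocorticoid and the clock list.

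The 5 tested genes whose log2 CPM was most like that of Vdr over the 12 libraries were Ulk1 (Pearson r 0.992), Gpcpd1 (0.987), Pnrc1 (0.986), Lgr4 (0.985) and Mknk2 (0.984). The libraries fall into a DMSO and an iBET cluster, so these coefficients mostly restate the difference between drug groups, and no p is given. Lgr4, a receptor for R-spondins, was at 1.60 and 0.897 CPM in DMSO (Ova and IC) and at 11.2 and 10.9 CPM in iBET, levels close to those of Vdr. Ulk1, the kinase that starts autophagy, was at 25.3 and 19.2 CPM in DMSO and 67.9 and 65.3 CPM in iBET.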

How the data were processed

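The 12 libraries held total RNA from BMDMs of 3 mice. The authors deposited counts per gene symbol; the submitters' processing notes name CASAVA, FastQC, Trim Galore, HISAT2, featureCounts and the build mm10, and the annotation and use of strand are not given in the sources used here. The deposited normalized signal equalled the counts divided by DESeq2 size factors (largest relative gap 4.89e-15) and entered only the limma alternatives.

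Counts were filtered by filterByExpr (minimum count 10; 11468 of 24421 genes kept), scaled by TMM and fitted in edgeR 4.0.16 (R 4.3.3) by a quasi-likelihood model with 1 term per group over 12 libraries, giving 5 contrasts. Tests were two-sided, with Benjamini-Hochberg adjustment across the full set of tested genes. The SE is the absolute log2 fold change over the square root of F. A change in a given number of mice is of log2 CPM (prior count 2). Exon lengths and positions come from GENCODE vM21 (GRCm38/mm10). Alternatives used DESeq2 1.42.0, limma 3.58.1 (pseudocount 1 or 0.1), sva 3.50.0 (1 surrogate variable), other filters and scalings, and the omission of each library or mouse.

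The labels give each library a mouse (A, B or C), which pairs the libraries. Deviations from group means correlated between -0.07 and 0.54 in 18 same-mouse pairs (median 0.26) and between -0.50 and 0.27 in 36 other pairs (median -0.13). Total counts of 7.55 M to 17.4 M per library set the counting error of scarce transcripts.

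The 9 receptors and all gene lists were chosen with earlier results of these data known. Beside the 9 receptors, a gene was named when called with iBET under both stimuli in the same direction, up to 3 rising and 3 falling per list by mean change, together with Cyp24a1, Cyp27b1, Fkbp5, Cd36, Arntl and Dbp and the 5 genes most like Vdr. A gene that this rule names is not reported here. Other names (Dhcr7, Rdh10, Nr4a1, Nr2c1, Nr2c2, Ucp2, Fabp4, Ppara and Rxrg) were added after their values were seen.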

Additional observations from a re-analysis of the deposited data

How the results depend on the processing

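The falls of Pparg (log2 fold change -2.37 to -2.08 in Ova, -2.32 to -1.95 in IC) and the rises of Ppard (1.12 to 1.77 and 1.58 to 1.73) passed under every alternative in which the gene was tested. Vdr, untested, lay between 2.73 and 3.25 in Ova and 3.38 and 4.21 in IC. With at least 10 counts in every library Ppard and Vdr dropped out, which left 1 receptor called under each stimulus. With mouse as a replicate block (paired analysis), Rxra in Ova was called (-0.42, adjusted p = 0.0195), and no other call changed among the 9 receptors. The receptor family count in Ova was 4 to 9 when libraries or mice were left out, lowest without mouse B. Calls over all genes, 3593 in Ova and 3987 in IC, numbered 1308 and 1766 in that fit, 2027 and 2486 with mouse C left out and 3849 and 3847 with mouse A left out. Without mouse B the PPAR counts were 4 and 5, the coregulator counts 2 and 2, and the glucocorticoid count in IC 5. Without mouse B the Ova calls of Rora, Nr1h2, Nr1h3, Lcor, Sin3a, Carm1 and Ncoa6 and the IC calls of Nr1h2, Ddit4, Bhlhe40, Nrip1, Lcor, Carm1 and Ncoa6 were lost (adjusted p 0.0516 to 0.110), without mouse C those of Nr1h2, Ddit4 and Carm1 in Ova and of Nr1h2, Ddit4 and Lcor in IC (0.0643 to 0.137). Rxrb in Ova, near 0, turned to -0.00337 with DESeq2, -0.0085 with its size factors, -0.0018 with the stricter filter and -0.021 in the compared groups alone. Pparg for IC against Ova in iBET turned to 0.0031 without a filter, 0.0027 in the groups alone and 0.0016 without Rn45s, and Cd36 in Ova to -0.00582 in the groups alone. Other changes of sign came from leaving out libraries or mice and lay in values that were not called. With iBET in Ova the ranges were -0.215 to 0.233 (Rxrb), -0.119 to 0.0207 (Rara), -0.302 to 0.109 (Nr1d2) and -0.200 to 0.191 (Cd36). With iBET in IC they were -0.155 to 0.215 (Rxrb), -0.259 to 0.000239 (Rara), -0.143 to 0.05003 (Nr3c1) and -0.111 to 0.0625 (Cd36). For IC against Ova in DMSO they were -0.205 to 0.0822 (Rara), -0.0811 to 0.140 (Nr3c1), -0.353 to 0.176 (Ppard) and -0.584 to 0.0539 (Nr1d1), and in iBET -0.145 to 0.0862 (Vdr), -0.247 to 0.182 (Pparg), -0.0161 to 0.243 (Ppard) and -0.331 to 0.0885 (Nr1d2). The cause of these changes was not tested. Depth limits the scarce transcripts most, Vdr in DMSO (3 to 16 counts per library) and Cyp24a1 among them.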
